A study of Mus musculus with 8 samples.

Results

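The genes described here are those of the collagen, laminin and integrin families with a small set of matrix glycoproteins, read in embryonic mouse hearts. Members were taken by symbol in the GENCODE M21 annotation: collagen chains (Col, a number, a, a number), laminin chains (Lama, Lamb or Lamc with a digit), genes whose symbol begins with Itga or Itgb, and Fn1, Nid1, Nid2, Hspg2, Agrn, Tnc and Sparc. The rule fitted 93 annotated symbols, of which 73 had a row in the table of 13637 genes. These 73 were 33 collagen chains, 11 laminin chains, 7 glycoproteins, 19 integrin subunits, and 3 genes (Itgb1bp1, Itgb1bp2 and Itgb3bp) that carry an integrin name but encode no subunit. The other 20 symbols, 11 of them collagens, 8 integrin subunits (among them Itgb4, Itgb6 and Itgb7) and the integrin-named Itgbl1, had no row and were not analysed here.

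Hearts were dissected from E9.5 mouse embryos for RNA sequencing, with 4 samples carrying Bmp2GOF;Nkx2.5-Cre (GOF, a gain-of-function allele of the growth factor gene Bmp2) and 4 wild-type samples (WT). Nkx2.5-Cre is a recombinase driver active in the heart field of the embryo, so the GOF group is defined by where and when that driver acts. The labels name no strain, do not say whether a sample was a single heart or a pool, and do not say whether WT embryos carried Cre. The spread behind each p-value is therefore that between samples, and may be technical. In whole hearts, a change in the number of cells of a type and a change in RNA per cell cannot be told apart.

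Matrix and adhesion genes are read here as a single system. Collagen and laminin chains assemble inside the cell into trimers that are secreted, laminins and type IV collagen form the sheets of the basement membrane, and nidogens and perlecan tie those sheets together. Integrins are receptors of an alpha and a beta subunit that bind these proteins outside the cell and link them to the actin cytoskeleton within it. In the early heart, matrix lies between myocardium and endocardium as the cardiac jelly, and the cells of the endocardial cushions, the precursors of valves, move into it.

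Sequences are shown for the genes on which the account turns most: the type IV collagen pair, which start next to each other in opposite directions, and the laminin and collagen chains with the largest rise and the largest fall, Lamb3 and Col23a1. Each is the RefSeq promoter window of 250 bases before to 50 bases after the annotated start on GRCm38.p6, written 5′ to 3′ on the strand of the gene. Col4a1 lies on the minus strand with its window at chr8:11312777-11313076 and its start at 11312826. Col4a2 lies on the plus strand with its window at chr8:11312555-11312854 and its start at 11312805. Capitals in this pair mark the 78 bases that both windows cover, read in opposite directions. Capitals in the Lamb3 window (chr1:193301744-193302043, plus strand) mark a GCGTG match, and the Col23a1 window (chr11:51289670-51289969, plus strand) held no match to either motif searched, so it has no capitals. RefSeq lists another Lamb3 window at chr1:193301993-193302292, which starts further downstream, held no match to either motif and is not printed. Both windows lie inside the GENCODE M21 span of Lamb3, which begins upstream of them at 193207699.
Col4a1: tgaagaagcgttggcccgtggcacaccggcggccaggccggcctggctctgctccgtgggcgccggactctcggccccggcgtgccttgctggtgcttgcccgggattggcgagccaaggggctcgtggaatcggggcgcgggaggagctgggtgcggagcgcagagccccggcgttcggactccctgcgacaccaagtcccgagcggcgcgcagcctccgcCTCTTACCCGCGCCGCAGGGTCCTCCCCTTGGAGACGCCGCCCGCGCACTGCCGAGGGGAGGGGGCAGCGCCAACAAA
Col4a2: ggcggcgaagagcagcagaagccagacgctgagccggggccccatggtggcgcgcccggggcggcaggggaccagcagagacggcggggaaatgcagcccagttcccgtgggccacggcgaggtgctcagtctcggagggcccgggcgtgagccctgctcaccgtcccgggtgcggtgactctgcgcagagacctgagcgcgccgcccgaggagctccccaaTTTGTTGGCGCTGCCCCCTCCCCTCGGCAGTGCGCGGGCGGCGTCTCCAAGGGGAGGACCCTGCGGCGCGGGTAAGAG
Lamb3: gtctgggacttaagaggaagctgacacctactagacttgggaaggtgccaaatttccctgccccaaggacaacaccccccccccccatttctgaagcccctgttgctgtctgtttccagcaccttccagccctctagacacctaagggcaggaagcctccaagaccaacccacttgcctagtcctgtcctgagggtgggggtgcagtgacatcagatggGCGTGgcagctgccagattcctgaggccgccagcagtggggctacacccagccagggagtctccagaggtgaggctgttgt
Col23a1: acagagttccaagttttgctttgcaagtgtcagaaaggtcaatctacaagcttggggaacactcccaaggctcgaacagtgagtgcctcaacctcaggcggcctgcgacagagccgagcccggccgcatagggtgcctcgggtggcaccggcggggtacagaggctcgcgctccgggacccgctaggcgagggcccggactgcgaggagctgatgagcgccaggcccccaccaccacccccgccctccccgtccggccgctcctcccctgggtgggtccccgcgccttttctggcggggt

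The 2 motifs were the core of the hypoxia response element (ACGTG or GCGTG) and the CCAAT box, each searched on both strands. RefSeq windows were found for 51 of the 73 members, 58 windows in all. The hypoxia core was in 36.2% of member windows and in 43.8% of all 32851 promoter windows. CCAAT was in 24.1% of member windows and 37.4% of all. Among windows of members that rose in GOF the hypoxia core was in 36.0%, among those that fell in 36.4%, and among those that did not pass in 36.4%. The Col4a1 and Col4a2 windows held 1 match to each motif apiece. A match describes these letters only, and none of these shares was tested.

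Levels are given in normalized reads, the scale of the deposited values, and means are followed by ± SD over the 4 samples of a group. The whole reads implied by the values, an inference from their steps, came to between 12287069 and 17927674 per sample, so that 3 reads corresponded to 0.17 to 0.242 normalized reads. Bmp2 was at 95.8, 102, 108 and 91.1 in GOF samples 1 to 4 and 61.7, 59.6, 54.4 and 49.5 in WT samples 1 to 4. Every GOF sample was above every WT sample (log2 fold change 0.81 with SE 0.07, limma adjusted p = 2.91e-07, exact two-sided permutation p = 0.0286, the smallest that 4 samples against 4 allow). The hearts carried myocardium markers: the summed level of 10 was 36033 to 42626 normalized reads in GOF and 33854 to 38370.3 in WT. GOF sample 1 stood apart from the other GOF samples on the second principal component of all genes, which held 7.98% of the variance against 72.6% for the first, the axis that separated the groups.

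In GOF hearts the links of the basement membrane (Nid1, Nid2, Hspg2), several laminin chains (Lama3, Lama5, Lamb1, Lamb3), type VI collagen and the receptor subunits Itga1, Itga6, Itgav, Itgb1 and Itgb5 were higher than in WT. Col1a1, Col12a1 and Col16a1 more than doubled. The membrane collagens Col13a1 and Col23a1, with Col26a1, fell the most, and Itga9 and Itgb8 fell as well. Of the 73 members, 32 rose and 15 fell in GOF, and 26 did not pass the threshold, an adjusted p under 0.05 in limma (Benjamini-Hochberg, 13637 genes). That is 43.8% of members higher and 20.5% lower, where across all genes 28.2% were higher, 28.2% lower and 56.3% passed in either direction. The median log2 fold change of members was 0.17, and that of all genes was -0.0020. In 30 members every GOF sample lay above every WT sample, in 11 every one lay below, and in 32 the groups overlapped. Groups did not overlap in 50.9% of all genes. On the log2(value + 1) scale of the fit, which understates the change of low genes, 6 members rose at least 2-fold and 3 fell at least 2-fold, against 3.58% and 0.968% of all genes. By the ratio of group means, 4 low members that rose were above 2-fold as well, Lamc3 (3.84-fold), Itgb2 (2.51-fold), Itgal (2.19-fold) and Itga11 (2.06-fold). Without GOF sample 1 the counts were 36 higher and 15 lower. Every gene of the table reached 1 normalized read in 4 samples or more. Itga11, Itgal and Lamc3 were under 1 in every WT sample and entered through GOF alone, so they had to differ. They are included in the 32 that rose and in the 30 with every GOF sample above WT. At or above 1 in all 8 samples were 68 members.

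**Figure D1:**
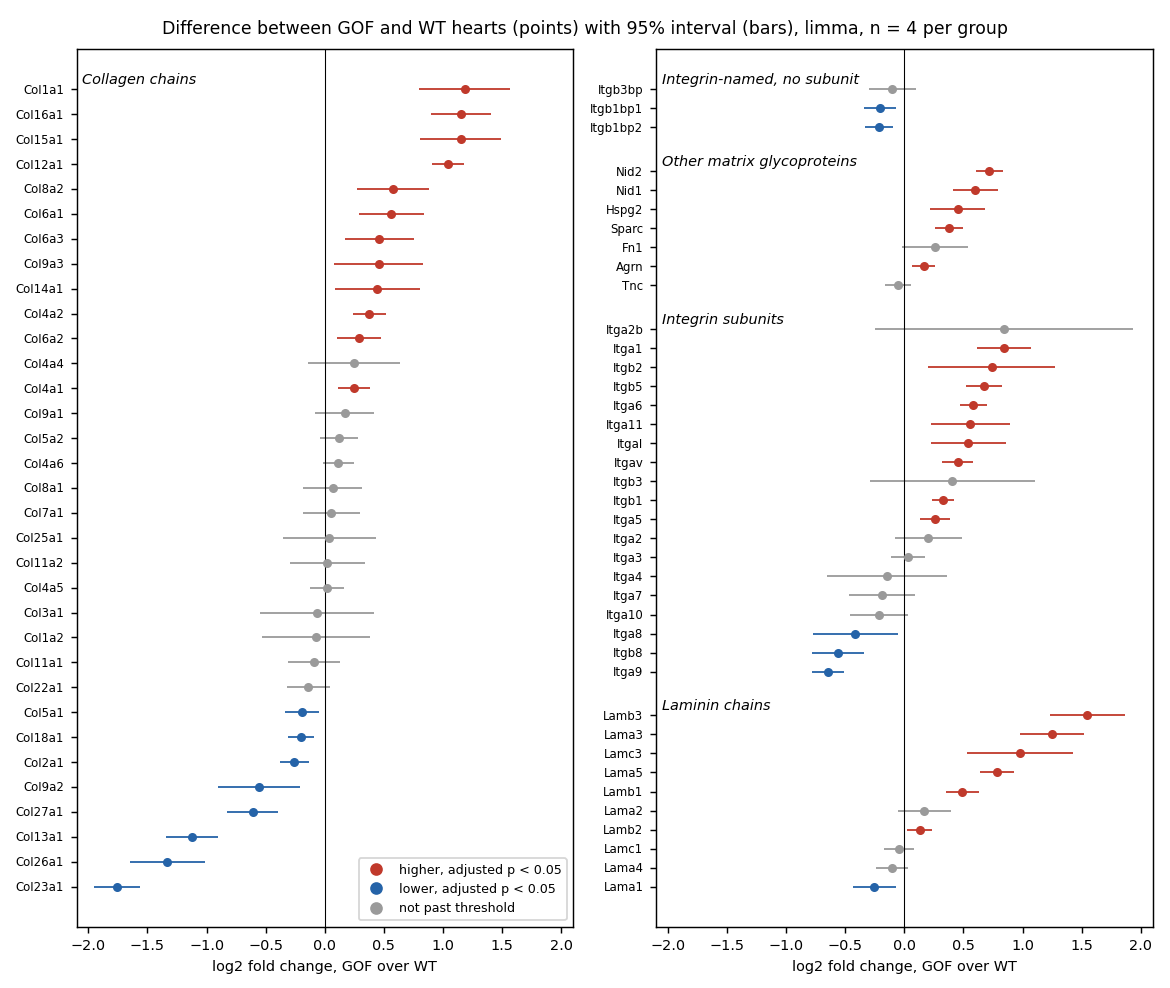
Log2 fold change (GOF over WT, x axis) of the members by class, with points for limma estimates and bars for 95% intervals (n = 4 per group); red and blue mark adjusted p under 0.05. Collagens run from Col1a1 at 1.18 to Col23a1 at -1.76, and among the glycoproteins 5 of 7 passed the threshold to the right of 0 and none to the left.

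Fibrillar collagens, the rods that give connective tissue its strength, were split. Of 9 chains, Col1a1 rose, Col2a1, Col5a1 and Col27a1 fell, and 5 did not pass. That is 11.1% higher and 33.3% lower, against 28.2% each among all genes. Col1a1 (chr11:94936224-94953042, ENSMUSG00000001506) was at 166, 271, 243 and 193 in GOF samples 1 to 4 and 99.9, 84.8, 98.8 and 92.4 in WT samples 1 to 4. Each GOF sample was well above the WT range, a 2.32-fold difference of means (log2 fold change 1.18 with SE 0.16, limma adjusted p = 0.000721). Col1a2, which encodes the partner chain of type I collagen, was at 65.7, 114, 105 and 73.5 in GOF samples 1 to 4 and 89.4, 90.99, 99.6 and 87.9 in WT samples 1 to 4. The groups overlapped, with GOF samples 1 and 4 below all WT samples and GOF samples 2 and 3 above them (log2 fold change -0.07, 95% interval -0.53 to 0.39, limma adjusted p = 0.773). Col3a1, the type III chain of soft tissues, had the same order of GOF samples. Its levels were 154, 283, 264 and 193 in GOF samples 1 to 4 and 216, 236, 226 and 232 in WT samples 1 to 4 (log2 fold change -0.07, 95% interval -0.55 to 0.42, limma adjusted p = 0.801).

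Col2a1, the cartilage collagen that early heart cells also express, was the most abundant fibrillar chain per length. It was at 645, 638, 576 and 649 in GOF samples 1 to 4 and 746, 672, 802 and 784 in WT samples 1 to 4, every GOF sample being below every WT sample (log2 fold change -0.26 with SE 0.06, limma adjusted p = 0.00124). Col27a1 fell from 11.5 ± 0.544 to 7.25 ± 1.05 (SD, n = 4 per group; limma adjusted p = 0.000111). Col5a1, which sets fibril diameter together with type I collagen, fell by 0.19 on the log2 scale with overlapping groups (limma adjusted p = 0.027). That call was lost when any of GOF samples 1, 3 or 4 or WT samples 3 or 4 was left out. For its partner Col5a2 the means were 127 ± 15.4 (GOF) and 116 ± 4.96 (WT), which did not pass (limma adjusted p = 0.196; 0.0122 without GOF sample 1). Col11a1 and Col11a2 did not pass either, with 95% intervals of -0.31 to 0.13 and -0.30 to 0.34.

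The collagens that coat fibrils, known as FACIT collagens, and type VI collagen, the beaded filament of the cell surroundings, mostly rose. Among 7 FACIT chains 4 rose (57.1%) and 1 fell (14.3%), and all 3 chains of type VI rose. Among all genes 28.2% rose and 28.2% fell, and these subclasses are small. Col12a1, found on fibrils of tissue under load, was at 111, 119.6, 131 and 126 in GOF samples 1 to 4 and 66.2, 56.5, 55.1 and 57.7 in WT samples 1 to 4. The groups were far apart and each was tight (log2 fold change 1.04 with SE 0.06, limma adjusted p = 3.32e-09). Col16a1 was at 12.5, 17.8, 13.6 and 12.5 in GOF samples 1 to 4 and 4.82, 5.93, 5.77 and 6.5 in WT samples 1 to 4, with GOF sample 2 the highest (log2 fold change 1.15 with SE 0.12, limma adjusted p = 7.95e-07). Col14a1 and Col9a3 also passed, at log2 fold changes of 0.44 and 0.46, from means under 7 normalized reads. Col14a1 no longer passed without GOF sample 3 or without WT samples 1, 2 or 4 (each omitted singly), and was 0.26 without GOF sample 3. The Col9a3 call was lost when any sample other than GOF sample 1 or WT sample 2 was left out, and 6.07% of its exon length overlaps Tcfl5 on the opposite strand. Col9a2, another type IX chain, fell by 0.56 (limma adjusted p = 0.00916, groups overlapping), while Col9a1 and Col22a1 were at 14.1 ± 3.06 and 15.99 ± 2.03 in GOF and 12.3 ± 0.933 and 17.6 ± 0.332 in WT and did not pass. Col22a1 passed as lower without GOF sample 1 (log2 fold change -0.21, limma adjusted p = 0.0343).

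Type VI chains moved by unequal amounts. Col6a1 was at 30.1, 43.3, 32.9 and 28.6 in GOF samples 1 to 4 and 19.4, 22.7, 25.4 and 21.8 in WT samples 1 to 4, above WT in each GOF sample (log2 fold change 0.56 with SE 0.12, limma adjusted p = 0.00283). Col6a2 went from 38.3 ± 2.69 to 47.3 ± 6.4 with a small overlap (limma adjusted p = 0.0103), and Col6a3, the long chain, from 2.56 ± 0.436 to 3.901 ± 0.642 (limma adjusted p = 0.0101).

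Basement membrane collagens rose in part. Type IV collagen is the network of every basement membrane, and Col4a1 and Col4a2 encode its common form. Col4a1 was at 991, 1240.0, 1160.5 and 1018 in GOF samples 1 to 4 and 903, 911, 942 and 944 in WT samples 1 to 4. All GOF samples were above all WT samples, by 1.19-fold in the means (log2 fold change 0.25 with SE 0.06, limma adjusted p = 0.00381). Col4a2 was at 632, 790.4, 734 and 643 in GOF samples 1 to 4 and 532, 511, 544 and 560.3 in WT samples 1 to 4 and rose somewhat more (log2 fold change 0.38 with SE 0.07, limma adjusted p = 0.000242). The chains of the rarer type IV networks did not pass: Col4a5 was at 187 ± 19.95 in GOF and 184 ± 8.53 in WT (95% interval of the log2 fold change -0.12 to 0.16), Col4a6 at 62.9 ± 5.29 and 58.1 ± 3.03, and Col4a4 under 2 in every sample. Without GOF sample 1, Col4a6 passed as higher (log2 fold change 0.17, limma adjusted p = 0.0112).

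The multiplexins Col15a1 and Col18a1, basement membrane proteins with heparan or chondroitin sulfate chains, moved apart. Col18a1, the source of the fragment endostatin, was at 537, 587, 587 and 504 in GOF samples 1 to 4 and 633, 620.2, 623 and 661 in WT samples 1 to 4. GOF lay below WT throughout (log2 fold change -0.20 with SE 0.05, limma adjusted p = 0.00386). Col15a1 was far scarcer per length, at 5.74, 3.89, 5.82 and 3.34 in GOF samples 1 to 4 and 1.57, 1.41, 1.25 and 1.87 in WT samples 1 to 4, and rose (log2 fold change 1.15 with SE 0.16, limma adjusted p = 2e-05).

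Of the 7 other collagens 1 rose (14.3%) and 3 fell (42.9%), against 28.2% each among all genes. These 3 were the members that fell by at least 2-fold. Col23a1 (chr11:51289920-51583918, ENSMUSG00000063564), a collagen anchored in the cell membrane, was at 11.8, 9.005, 11.8 and 8.699 in GOF samples 1 to 4 and 35.9, 37.5, 36.8 and 37.9 in WT samples 1 to 4. GOF held 0.279 of the WT mean and no sample came near the other group (log2 fold change -1.76 with SE 0.09, limma adjusted p = 4.37e-10). Col13a1, also a membrane collagen and found at cell-matrix junctions, was at 12.7, 13.4, 9.44 and 14.5 in GOF samples 1 to 4 and 26.7, 28.2, 28.05 and 29.8 in WT samples 1 to 4, with all GOF samples far below WT (log2 fold change -1.12 with SE 0.10, limma adjusted p = 4.01e-07). Col26a1 was at 15.4, 9.86, 13.1 and 8.97 in GOF samples 1 to 4 and 30.6, 32.5, 28.2 and 31.7 in WT samples 1 to 4, with GOF sample 1 the nearest to WT (log2 fold change -1.33 with SE 0.14, limma adjusted p = 1.84e-05). Col25a1, the remaining membrane collagen, was at 2.45 ± 0.992 and 2.299 ± 0.507 and did not pass (limma adjusted p = 0.874). The network-forming Col8a2 rose by 0.57 (limma adjusted p = 0.00305), and neither Col8a1 nor Col7a1, the anchoring fibril chain, passed (95% intervals -0.18 to 0.31 and -0.19 to 0.29).

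Collagens as a class counted 12 higher, 8 lower and 13 not past the threshold, with a median log2 fold change of 0.07 that changed sign, to -0.01, under quantile normalization. These counts are 36.4% higher and 24.2% lower, against 28.2% each among all genes. The summed collagen level was 4071 to 4938 normalized reads in GOF and 4031 to 4307 in WT.

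Laminin chains rose in 6 of 11 cases (54.5%) and fell in 2 (18.2%), and 3 did not pass (median log2 fold change 0.17). Across all genes 28.2% rose and 28.2% fell. Lamc3, counted among the 6, entered the table through GOF alone and had to differ. Quantile normalization gave 5 higher and 4 lower, and equal totals without mitochondrial genes 5 and 3. Lamb3 (chr1:193207699-193343878, ENSMUSG00000026639), whose promoter window is shown above, was at 8.93, 8.72, 10.4 and 9.87 in GOF samples 1 to 4 and 3.22, 2.98, 2.87 and 1.51 in WT samples 1 to 4. The GOF samples were at least 2 times the highest WT sample, and WT sample 4 was the lowest of all (log2 fold change 1.55 with SE 0.15, limma adjusted p = 4.42e-07). Lama3 was at 6.14, 6.22, 4.89 and 4.92 in GOF samples 1 to 4 and 2.1, 1.72, 1.57 and 1.58 in WT samples 1 to 4 and its groups were apart as well (log2 fold change 1.25 with SE 0.13, limma adjusted p = 7.8e-07). Both are chains known from the basement membranes of skin and other lining epithelia. Of the epithelial endoderm markers, 4 of 8 from the foregut had a row and none passed, and Foxa1, Foxa2, Foxa3 and Nkx2-1 had no row. Their summed level was 1.25 to 19.7 normalized reads in GOF and 0.726 to 19.02 in WT. Shh among them was at 3.55 ± 2.54 in GOF and 0.447 ± 0.556 in WT (limma adjusted p = 0.113). From the yolk sac 4 of 9 markers had a row, with 1 higher and 0 lower. The part of such cells in the Lama3 and Lamb3 levels was not tested.

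The abundant laminins are the chains of cardiac and vascular basement membranes. Lama5, a widely expressed alpha chain, was at 241, 271, 240.4 and 233 in GOF samples 1 to 4 and 148, 123, 149.8 and 151 in WT samples 1 to 4. GOF was 1.72 times WT in the means, with WT sample 2 the lowest (log2 fold change 0.78 with SE 0.07, limma adjusted p = 5.32e-07). Lama4, the alpha chain of vessels and heart muscle, was at 171, 216, 207 and 185 in GOF samples 1 to 4 and 209, 209, 199 and 218 in WT samples 1 to 4. The groups overlapped (log2 fold change -0.10, 95% interval -0.24 to 0.03, limma adjusted p = 0.188), and without GOF sample 2 the test passed as lower (limma adjusted p = 0.0361). Lamb1, the main beta chain, was at 442, 546, 559 and 478 in GOF samples 1 to 4 and 366, 352, 365 and 352 in WT samples 1 to 4, all GOF samples above WT (log2 fold change 0.49 with SE 0.06, limma adjusted p = 2.2e-05). Lamc1, the gamma chain that most laminins share, was at 418, 527, 483 and 456 in GOF samples 1 to 4 and 502, 469.9, 478 and 489.7 in WT samples 1 to 4. It showed overlapping groups (log2 fold change -0.05, 95% interval -0.17 to 0.08, limma adjusted p = 0.526).

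Among the remaining laminins, Lamb2 rose from 102 ± 6.78 to 111 ± 1.21 (limma adjusted p = 0.0334), which no longer passed if GOF samples 2 or 3, or WT samples 1 or 2, were omitted. Over all 17 alternative runs the Lamb2 call held in 9, with log2 fold changes of 0.06 to 0.16. Lama1, the alpha chain of the earliest embryonic basement membranes, fell from 29.6 ± 3.86 to 24.6 ± 1.85 with overlapping groups (limma adjusted p = 0.0216). It did not pass once GOF sample 4, WT sample 1 or WT sample 4 was omitted. Lama2, the muscle laminin chain, was at 24.1 ± 4.11 in GOF and 21.1 ± 1.72 in WT (limma adjusted p = 0.187; 0.013 without GOF sample 1). Lamc3 passed at 0.98, from a WT mean of 0.556 to a GOF mean of 2.14, near the lower limit of the table. Its presence in the table rests on GOF alone, so a difference was fixed in advance.

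Glycoproteins of the matrix rose in 5 of 7 cases (71.4%, against 28.2% of all genes) and none fell (median log2 fold change 0.38). The nidogens led. Nid2 was at 656, 765, 699.6 and 679.6 in GOF samples 1 to 4 and 426, 395, 444 and 434 in WT samples 1 to 4. The lowest GOF sample was far above the highest WT sample (log2 fold change 0.72 with SE 0.05, limma adjusted p = 1.86e-08). Exons of Nid2 overlap those of Rtraf on the opposite strand over 8.45% of their length, and the use of strand in counting is not given in the sources used here. Nid1 was at 241, 305, 277 and 224 in GOF samples 1 to 4 and 174, 178, 164 and 169 in WT samples 1 to 4, again without overlap (log2 fold change 0.60 with SE 0.08, limma adjusted p = 0.000148). Hspg2, which encodes the basement membrane proteoglycan perlecan, was at 975, 1386, 1195 and 1086 in GOF samples 1 to 4 and 879.7, 764, 842 and 885 in WT samples 1 to 4, with GOF sample 2 the highest (log2 fold change 0.45 with SE 0.10, limma adjusted p = 0.00456). Sparc, a collagen-binding protein of the matrix, was at 674, 843, 773 and 779 in GOF samples 1 to 4 and 569, 602, 597 and 589 in WT samples 1 to 4, all GOF samples being higher (log2 fold change 0.38 with SE 0.06, limma adjusted p = 4.46e-05). Agrn, the heparan sulfate proteoglycan agrin, was at 364, 364, 350.3 and 329.8 in GOF samples 1 to 4 and 317, 298, 317 and 325 in WT samples 1 to 4, a small rise that kept the groups apart (log2 fold change 0.16 with SE 0.04, limma adjusted p = 0.00566). With totals set equal without mitochondrial genes, Agrn no longer passed (log2 fold change 0.10, limma adjusted p = 0.0748).

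Fn1 encodes fibronectin, which binds integrins and is needed for heart and vessel development in mice. It was at 1913, 2859.8, 2604 and 2140.0 in GOF samples 1 to 4 and 2018, 1893, 1937 and 2017 in WT samples 1 to 4. GOF samples 2, 3 and 4 were above the WT range and GOF sample 1 was inside it, and the difference did not pass (log2 fold change 0.26, 95% interval -0.02 to 0.54, limma adjusted p = 0.104). Without GOF sample 1 the log2 fold change was 0.36 and passed (limma adjusted p = 0.0171). Tnc, which encodes tenascin C, was at 167, 156, 168 and 149.6 in GOF samples 1 to 4 and 170.4, 159, 157 and 180.0 in WT samples 1 to 4 and the groups overlapped (95% interval -0.17 to 0.06, limma adjusted p = 0.389).

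**Figure D2:**
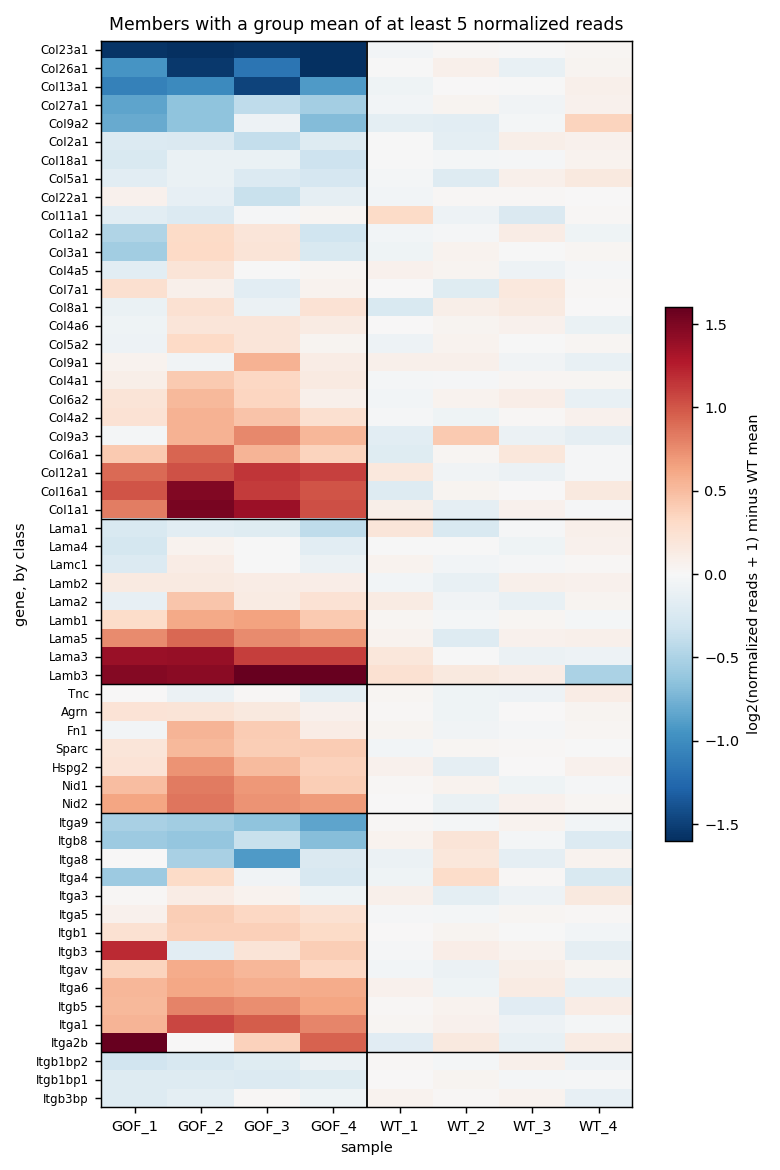
Level of the members with a group mean of at least 5 normalized reads in the 8 samples, as log2(normalized reads + 1) minus the WT mean of that gene (colour, scale ending at -1.6 and 1.6), with genes ordered by log2 fold change within class. The GOF columns of Col23a1, Col26a1 and Col13a1 are blue and those of Lamb3, Lama3, Col1a1, Col16a1 and Col12a1 red in all 4 samples, while Itga2b and Itgb3 are red mainly in GOF sample 1.

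Integrin subunits, the receptors of this matrix, rose in 9 of 19 cases (47.4%), fell in 3 (15.8%) and did not pass in 7 (median log2 fold change 0.33). The share of all genes was 28.2% in each direction. Itgal and Itga11, counted among the 9, entered the table through GOF alone and had to differ. Under quantile normalization 9 rose and 5 fell. The summed integrin level was 2531 to 2694 normalized reads in GOF and 1907 to 2037 in WT, with no overlap of the groups. Most of that sum came from Itga6 (mean 911 in GOF and 609 in WT) and Itgb1 (893 and 711), so it says little of the other subunits. Itgb1, the beta subunit of most matrix receptors, was at 838, 929.6, 924 and 880.0 in GOF samples 1 to 4 and 714, 731, 709.7 and 687 in WT samples 1 to 4. All GOF samples were above all WT samples (log2 fold change 0.33 with SE 0.04, limma adjusted p = 1.38e-05). Of its alpha partners, Itga6, which gives a laminin receptor, was at 876, 933, 913 and 919.6 in GOF samples 1 to 4 and 638, 578, 663 and 558 in WT samples 1 to 4, a wide gap between tight groups (log2 fold change 0.58 with SE 0.05, limma adjusted p = 2.44e-07). Itga1, for a receptor of collagen and laminin, was at 64.5, 93.7, 87.4 and 76.4 in GOF samples 1 to 4 and 45.2, 46.3, 41.6 and 43.1 in WT samples 1 to 4, the lowest GOF sample well above WT (log2 fold change 0.84 with SE 0.10, limma adjusted p = 5.65e-05); it shares 3.68% of its exon length with another annotated gene. Itga5, for the main fibronectin receptor, was at 203, 255, 243 and 228 in GOF samples 1 to 4 and 191, 189, 197 and 197 in WT samples 1 to 4, with GOF sample 1 closest to WT (log2 fold change 0.26 with SE 0.06, limma adjusted p = 0.00152).

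Itgav and Itgb5 also rose. Itgav, whose product recognises the RGD motif of matrix proteins, was at 99.5, 118, 113 and 98.02 in GOF samples 1 to 4 and 75.3, 72.9, 82.7 and 80.3 in WT samples 1 to 4, and the groups did not overlap (log2 fold change 0.45 with SE 0.06, limma adjusted p = 1.93e-05). Itgb5, its partner in a vitronectin receptor, was at 72.9, 88.7, 85.5 and 78.7 in GOF samples 1 to 4 and 51.01, 52.5, 44.3 and 55.05 in WT samples 1 to 4, also without overlap (log2 fold change 0.67 with SE 0.07, limma adjusted p = 2.74e-06). Itgb8, whose pairing with the alpha v subunit is known for activating TGF-beta, fell instead. It was at 8.32, 8.096, 9.897 and 7.74 in GOF samples 1 to 4 and 13.5, 15.1, 12.6 and 10.98 in WT samples 1 to 4, every GOF sample below every WT sample (log2 fold change -0.56 with SE 0.10, limma adjusted p = 0.000303). Itga9, for a receptor of tenascin C and other ligands, was at 61.5, 60.1, 56.2 and 48.8 in GOF samples 1 to 4 and 89.99, 86.4, 92.4 and 85.97 in WT samples 1 to 4, each GOF sample being well below WT (log2 fold change -0.64 with SE 0.06, limma adjusted p = 6.43e-07). Itga8, for a nephronectin receptor, fell by 0.41 with overlapping groups (limma adjusted p = 0.0475). That call was lost when any sample other than GOF sample 1 or GOF sample 4 was left out, and the log2 fold change was -0.25 without GOF sample 3.

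Some subunits near the lower limit of the table passed as higher: Itgb2 (2.78 ± 1.82 in GOF and 1.11 ± 0.172 in WT), Itgal (1.38 ± 0.255 and 0.631 ± 0.1196) and Itga11 (1.75 ± 0.455 and 0.849 ± 0.122). For Itgal and Itga11, present in the table through GOF alone, a difference was fixed in advance. Itgb2 and Itgal form an integrin of white blood cells, and Itga11 gives a collagen receptor of fibroblasts. GOF sample 1 held the highest Itgb2 level, 5.47, 1.68, 2.35 and 1.62 being the values of GOF samples 1 to 4. Without that sample the log2 fold change was 0.45 against 0.74 with it, and the call was lost without WT sample 1 or WT sample 3. Of 9 white blood cell markers 4 had a row, 1 of them higher and 2 lower in GOF, with a summed level of 9.08 to 10.1 normalized reads in GOF and 12.5 to 14.4 in WT; Ptprc, the common marker of white blood cells, had no row.

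Itga2b and Itgb3 encode the fibrinogen receptor of platelets and their precursors. Itga2b was at 74.04, 17.1, 22.5 and 33.7 in GOF samples 1 to 4 and 14.99, 19.2, 15.7 and 18.8 in WT samples 1 to 4. Itgb3 was at 122, 47.1, 61.04 and 69.6 in GOF samples 1 to 4 and 52.3, 57.1, 54.9 and 47.9 in WT samples 1 to 4. In both genes GOF sample 1 was far above all others and the groups overlapped, and neither passed (log2 fold changes 0.84 and 0.41, 95% intervals -0.25 to 1.93 and -0.29 to 1.10, limma adjusted p = 0.161 and 0.28). The 6 of 8 platelet lineage markers with a row had summed levels of 113, 17.8, 34.2 and 44.97 in GOF samples 1 to 4 and 13.7, 18.6, 15.7 and 14.2 in WT samples 1 to 4, the same sample being highest. None of the 6 passed, Gp6 and Gp9 had no row, and the part of these cells in the Itga2b and Itgb3 levels was not tested.

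Itga4, whose product is needed by the epicardium in mice, was at 41.4, 77.2, 60.1 and 52.4 in GOF samples 1 to 4 and 59.6, 76.8, 63.1 and 52.8 in WT samples 1 to 4 and did not pass (95% interval -0.65 to 0.36, limma adjusted p = 0.591); 8.04% of its exon length overlaps Cerkl. Itga3, for a second laminin receptor, was at 44.7 ± 2.37 and 43.8 ± 4.39 (95% interval -0.11 to 0.17). The collagen receptor subunits Itga2 and Itga10 and the muscle laminin receptor subunit Itga7 were under 6 normalized reads in every sample and did not pass (limma adjusted p = 0.21, 0.129 and 0.229), and 33.5% of the exon length of Itga10 is shared with another annotated gene. Of the integrin-named genes without a subunit, Itgb1bp1, which binds the tail of the beta 1 subunit, and Itgb1bp2, the muscle protein melusin, fell by 0.20 and 0.21 (limma adjusted p = 0.0116 and 0.00468). Itgb1bp1 was at 17.01, 17.01, 16.8 and 17.1 in GOF samples 1 to 4 and 19.8, 20.3, 19.2 and 19.5 in WT samples 1 to 4, and Itgb1bp2 at 43.9, 45.7, 47.7 and 51.1 in GOF samples 1 to 4 and 55.5, 53.5, 58.2 and 51.7 in WT samples 1 to 4, with no overlap in either gene. Itgb3bp did not pass (limma adjusted p = 0.373). Exons of Itgb1bp1 and Itgb3bp overlap other genes over 16.9% and 8.59% of their length.

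In 7 of 8 pairs of chains that share a molecule or a ligand, the proportions differed between the groups. For 8 pairs the ratio of the 2 genes was taken within each sample, which removes any scale of the library, and compared by exact permutation (two-sided, all 70 assignments of samples), adjusted by Benjamini-Hochberg over the 8 pairs. In 7 pairs the groups did not overlap, each with exact p = 0.0286, the smallest possible, and adjusted p = 0.0327. Groups did not overlap in 50.9% of single genes either. The share among pairs of unrelated genes was not computed, so the separation is not shown to be particular to partner chains. Col1a1 to Col1a2 was 2.46 ± 0.145 in GOF and 1.02 ± 0.0794 in WT (mean ± SD of 4 samples each), a log2 difference of 1.26. This pair was tight within each group although both genes varied between GOF samples. Lamb1 to Lamc1 was 1.07 ± 0.0556 in GOF and 0.7405 ± 0.0201 in WT (log2 difference 0.53). Lama4 to Lama5 was 0.791 ± 0.0624 in GOF and 1.47 ± 0.158 in WT (-0.89). Per kb of merged annotated exons, Lama4 stood at 17.3 normalized reads and Lama5 at 12.6 in WT, and Lama4 at 16.2 and Lama5 at 21.6 in GOF. On that scale, which depends on the exon lengths used, the order of these alpha chains was exchanged.

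Itga6 to Itga3, the laminin receptor subunits, was 20.4 ± 1.098 in GOF and 14.02 ± 1.94 in WT (log2 difference 0.55). The remaining ratios moved less. Itga5 to Itgav, both for fibronectin receptors, was 2.17 ± 0.119 in GOF and 2.49 ± 0.0938 in WT (-0.19). Among collagens, Col6a1 to Col6a2 was 0.7103 ± 0.0495 in GOF and 0.582 ± 0.0469 in WT (0.27), and Col4a1 to Col4a2, the pair whose promoter windows share 78 bases, was 1.58 ± 0.00825 in GOF and 1.72 ± 0.0436 in WT (-0.13). The last was a small change with very little spread. Col5a1 to Col5a2 was 1.64 ± 0.192 in GOF and 2.04 ± 0.237 in WT (-0.31), and its groups overlapped (exact two-sided permutation p = 0.0571, adjusted p = 0.0571).

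**Figure D3:**
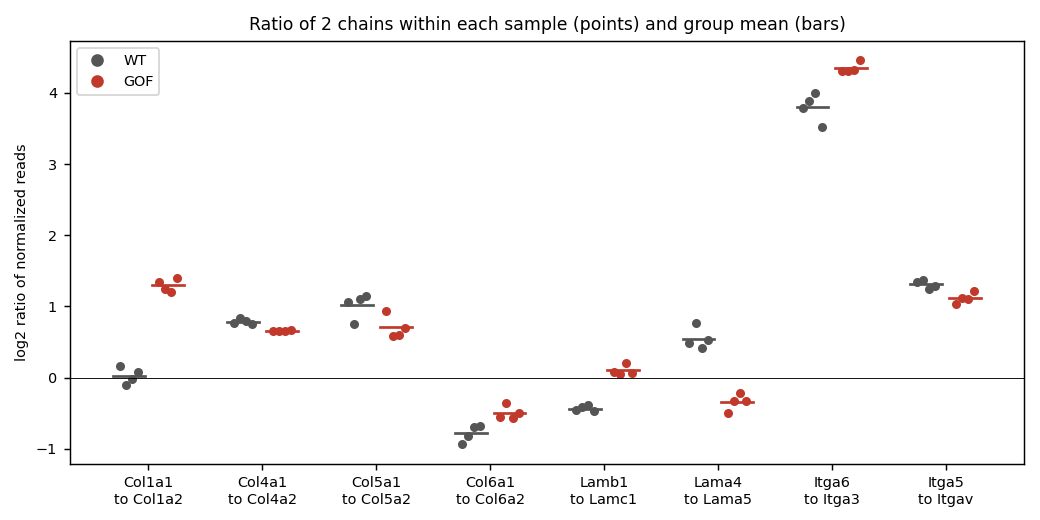
Log2 ratio of normalized reads of the 2 genes of each pair (y axis) in each sample (points; grey WT, red GOF, n = 4 per group) with group means (bars). Groups are apart in all pairs other than Col5a1 to Col5a2. The ratio of Col1a1 to Col1a2 rises the most and that of Lama4 to Lama5 falls the most.

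To compare levels between genes, values were divided by the exon length in kilobases, taken as the merged length of all annotated exons of a gene. Where that length exceeds the transcript in use, the level per kb is understated. The order of genes below therefore depends on the annotation as well. In WT hearts the highest levels per kb were those of Itgb1 (174 normalized reads per kb), Fn1 (168), Sparc (156) and Col4a1 (124). These 4 kept their order in GOF, at 219, 204, 203 and 148, where Itgb1, Fn1 and Sparc did not differ beyond their spread. Below them the order changed. Col18a1 followed in WT at 90.4 and stood at 78.9 per kb in GOF, behind Nid2 (135), Col4a2 (106), Itga6 (101) and Hspg2 (81.1). Nid2 was at 82.04 per kb in WT, Col4a2 at 81.1 and Col2a1 at 81.2, and these neighbours did not differ beyond their spread. Members that rose the most differed widely on this scale: in GOF Lamb3 was at 1.43, Lama3 at 0.516, Col16a1 at 2.09 and Col15a1 at 0.739 per kb, but Col12a1 at 8.01 and Col1a1 at 33.3.

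**Figure D4:**
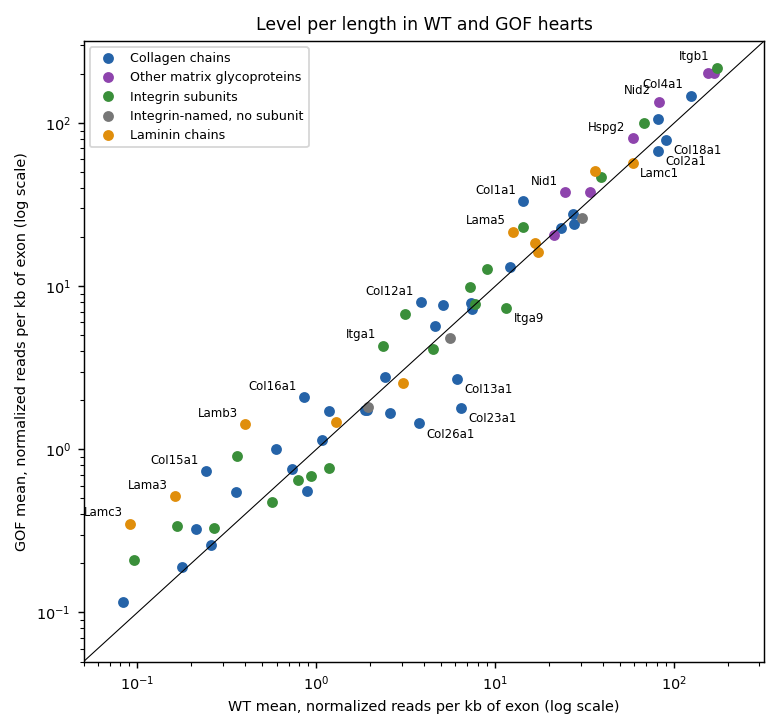
Mean level per kb of exon in WT (x axis) and GOF (y axis), both on log scales, for the members coloured by class; the line marks equal levels. Genes at the top right (Itgb1, Col4a1, Col18a1) lie near the line, and the genes farthest from it, such as Lamb3, Col15a1 and Col23a1, are at under 10 reads per kb.

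The GOF samples often fell in the same order. In 25 of the 73 members (34.2%) GOF sample 1 was the lowest and GOF sample 2 the highest of the group, and this held for 12.7% of all genes. It was so in 5 of 7 basement membrane collagens and in 4 of 7 glycoproteins, Fn1, Hspg2 and Sparc among them. Epicardium markers had the same order: it was found in 6 of 6 with a row, and their summed level was 219.9, 342, 265 and 253 in GOF samples 1 to 4 and 162, 202, 196 and 176 in WT samples 1 to 4. Of these, Wt1, Aldh1a2, Tcf21 and Upk3b rose (log2 fold changes 0.88, 1.12, 0.28 and 0.66; limma adjusted p = 5.2e-07, 0.00265, 0.0146 and 0.0433), and Msln had no row. Cushion mesenchyme markers summed to 247, 283, 325 and 259.6 in GOF and 217, 216, 191 and 214 in WT, with 5 of 8 higher and 1 lower. Myocardium markers were higher in 4 and lower in 2 of 10, and endothelium and endocardium markers higher in 3 and lower in 4 of 10, with summed levels of 725 to 877 normalized reads in GOF and 842 to 887 in WT for the last. Among all genes 28.2% were higher and 28.2% lower. This order of the GOF samples was found in 4 of 10 myocardium markers, with GOF sample 1 the lowest in 10 of 10, in 3 of 10 endothelium and endocardium markers and in 0 of 8 cushion mesenchyme markers. Erythroid marker sums were 11630, 3308, 2082 and 7185 normalized reads in GOF samples 1 to 4. In WT samples 1 to 4 they were 2072, 5890, 5597 and 4766. None of these 7 markers passed, and the order above was found in 0 of 7. The part of these cell types, blood cells included, in the matrix results was not tested.

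Among genes that connect integrins to the cytoskeleton most of those that passed were higher. Of 27 (28 listed) with a row, 15 rose (55.6%) and 1 fell (3.7%), against 28.2% each of all genes (median log2 fold change 0.19). With totals set equal without mitochondrial genes, 13 rose and 4 fell. Lims2, a partner of integrin-linked kinase, was at 31.1, 46.4, 42.9 and 36.2 in GOF samples 1 to 4 and 3.34, 3.42, 3.03 and 2.75 in WT samples 1 to 4 (log2 fold change 3.27 with SE 0.11, limma adjusted p = 4.23e-12). The groups were far apart. Bcar1, a docking protein at adhesion sites, was at 187, 205, 208 and 193 in GOF samples 1 to 4 and 102, 90.4, 102 and 105 in WT samples 1 to 4 (log2 fold change 0.99 with SE 0.05, limma adjusted p = 4.05e-10). Tln2, the talin of heart and muscle that activates integrins, was the gene that fell, at 76.8, 88.3, 85.1 and 85.1 in GOF samples 1 to 4 and 150.3, 135, 133 and 143 in WT samples 1 to 4 (log2 fold change -0.74 with SE 0.05, limma adjusted p = 1.32e-08). The common talin Tln1, vinculin (Vcl) and kindlin 2 (Fermt2) rose by 0.21, 0.26 and 0.40, and focal adhesion kinase (Ptk2) was at 101 ± 3.23 and 99.6 ± 3.68 and did not pass (limma adjusted p = 0.735).

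Other matrix genes were counted in the same way. Of 31 (35 listed) with a row, 15 rose (48.4%) and 7 fell (22.6%), against 28.2% each of all genes (median 0.23). Tinagl1, a secreted protein of basement membranes, was at 113, 131, 133 and 133 in GOF samples 1 to 4 and 43.9, 41.7, 47.2 and 46.9 in WT samples 1 to 4 (log2 fold change 1.48 with SE 0.06, limma adjusted p = 1.71e-11), and Thbs1, which encodes thrombospondin 1, rose by 1.81 (limma adjusted p = 8.59e-07). Frem1, a basement membrane protein of the Fraser complex, was at 17.5, 17.9, 17.8 and 14.5 in GOF samples 1 to 4 and 56.6, 63.3, 53.7 and 59.7 in WT samples 1 to 4 and fell (log2 fold change -1.73 with SE 0.07, limma adjusted p = 3.75e-11). Its relatives Fras1 and Frem2 rose by 0.54 and 0.42 (limma adjusted p = 0.000108 and 0.0056). Npnt, which encodes the integrin ligand nephronectin, rose from 63.4 ± 9.29 to 98.8 ± 8.48 (limma adjusted p = 0.000512).

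Genes that fold, export and process collagen numbered 21, all with a row, and 9 rose and 2 fell (median 0.13). Of these 21, 52.4% passed in either direction, near the 56.3% of all genes. Under equal totals without mitochondrial genes the counts were 5 and 3, and under quantile normalization 7 and 4. P4hb, a subunit of the collagen prolyl hydroxylase, rose from 565 ± 11.6 to 935 ± 70.2 (limma adjusted p = 1.08e-08), Mrc2, a receptor that takes up collagen, from 35.3 ± 2.98 to 71.2 ± 9.53 (2.33e-06), and P3h3, a prolyl hydroxylase, from 15.7 ± 1.58 to 26.5 ± 3.29 (6.91e-06). Serpinh1, the collagen chaperone, was at 1103 ± 46.3 and 1054 ± 28.99 and did not pass (limma adjusted p = 0.221). The catalytic subunits P4ha1 and P4ha2 were counted with the hypoxia-responsive genes. They went from 92.6 ± 3.49 to 315 ± 19.6 and from 38.5 ± 4.73 to 313 ± 15.3. All 13 genes of that list rose (median 2.09), as did all 8 immediate early genes with a row (median 1.47), where 28.2% of all genes were higher. Both lists were chosen with earlier results of these data known, so these counts are not independent of the data. The part of either set of genes in the member changes was not tested.

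Enzymes that degrade matrix, with their inhibitors, were higher in 12 and lower in 6 of 28 with a row (32 listed, median 0.07). These counts are 42.9% and 21.4%, against 28.2% each of all genes. Adamts9, a protease that cleaves the matrix proteoglycan versican, rose from 102 ± 3.28 to 171 ± 12.6 (limma adjusted p = 1.03e-08), and Timp3, a matrix-bound inhibitor of such proteases, from 70.1 ± 6.55 to 113 ± 2.56 (1.2e-07). Of the collagen-cleaving metalloproteases, Mmp2 rose by 0.36 and Mmp14 fell by 0.30 (limma adjusted p = 0.0017 and 0.000127).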

How the data were processed

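Messenger RNA of E9.5 hearts was sequenced from NEBNext Ultra libraries, per the labels' protocols. The values deposited were a normalized signal per gene (13637 genes, 8 columns). Tools named in the submitters' processing notes, without roles, were RSEM 1.2.3, cutadapt 1.6, CASAVA 1.8.2 and FastQC, with the build GRCm38; the normalization and strand use are not given in these sources. As inferred from the values and stated in no source, each equalled whole reads plus a constant times 1 scale per library (within 0.01). Columns summed to 998684 to 1020939 in GOF and 984298 to 992276 in WT, so every GOF total was above every WT total. Depth is given in the report. The deposited values are not counts, so the reported fit used no count model. The voom weights, an alternative run, were computed from the inferred whole reads.

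After a log2(value + 1) transform, limma 3.58.1 (R 4.3.3) was fitted (eBayes, trend and robust prior, two-sided, no covariate, Benjamini-Hochberg over all 13637 genes); fold changes on that scale understate changes of low genes. The fit was also run on simulated reads with 200 genes changed by known amounts. Far fewer genes changed there than were called in the data, so that run does not test the unstated normalization. Members were found by symbol; 77 table IDs were not in GENCODE M21. Per-sample values are given for 21 listed members, for the 4 largest changes per class with groups apart and a mean of at least 5 in 1 group, for Bmp2, and for up to 3 genes with the smallest p of a list; others named were chosen after their values were seen. Members, lists and rules were chosen with earlier results of these data known. Alternatives: another pseudocount and none, a filter, quantile normalization, equal totals without mitochondrial genes, another prior, voom weights, a replicate block, and leaving out each sample. Counts and medians cover every gene, but a few genes are not reported here by name or drawn in the figures.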

Additional observations from a re-analysis of the deposited data

Results flagged for a closer look

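In 5 of 148 groups of 4 samples checked (73 members and Bmp2), the highest or lowest sample stood farther from the rest than Dixon's 95% critical value. Chance flags about 1 group in 20, so this number is below what chance gives. Lama5 was at 123 in WT sample 2, against 148 to 151 in the other WT samples. Col2a1 was at 576 in GOF sample 3, with the other GOF samples at 638 to 649. Col9a3 was at 6.24 in WT sample 2 and 3.81 to 4.08 in the others, Col4a4 at 1.47 in WT sample 2 and 0.624 to 0.767 in the others, and Itga7 at 5.99 in WT sample 4 and 4.05 to 4.17 in the others.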

How the results depend on the processing

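Of the 47 members called, 38 kept direction and call under every alternative run and none reversed. Col14a1, Col9a3, Col6a3, Col5a1, Agrn, Itga8, Itgb2, Lama1 and Lamb2 lost the call under at least 1 alternative; the cause was not tested. Members higher numbered 23 with a filter of 5 reads, under which 58 of the 73 members were tested, and 28 to 32 under the other settings; lower numbered 13 to 19. Leaving out 1 sample gave 28 to 36 and 12 to 15. Lower counts moved under quantile normalization to 5 integrins (3 in the reported fit), 4 laminins (2), 2 adhesion genes (1) and 4 collagen folding genes (2). Under equal totals without mitochondrial genes 4 adhesion genes were lower, and 5 collagen folding genes (9) were higher. Without the trend 1 laminin was lower, and with a filter of 5 reads, which left 11201 genes, 0 collagen folding genes were lower. Quantile normalization gave a log2 ratio of Col4a1 to Col4a2 of -0.0843. Leaving out 1 sample, 1 to 3 laminins and 1 to 2 collagen folding genes were lower.

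Signs reversed only in members that had not passed. With equal totals these were Col4a5 (-0.0476), Col11a2 (-0.0194), Col25a1 (-0.00624), Col7a1 (-0.00403) and Itga3 (-0.034). With quantile normalization they were Col4a5 (-0.0197), Col11a2 (-0.0882), Col25a1 (-0.0884), Col7a1 (-0.0219) and Col8a1 (-0.0129), and with voom weights Col25a1 (-0.0147). Leaving out 1 sample gave Col11a1 -0.17 to 0.00776, Col11a2 -0.0522 to 0.124, Col1a2 -0.201 to 0.0614, Col25a1 -0.141 to 0.159, Col3a1 -0.195 to 0.0954, Col4a5 -0.0448 to 0.0798, Col7a1 -0.0125 to 0.129, Col8a1 -0.0154 to 0.125, Itga3 -0.0216 to 0.0818 and Lamc1 -0.102 to 0.00896.

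Quantile normalization also let Fn1 (higher) and Lama4, Lamc1, Itga7 and Itga10 (lower) pass; equal totals did so for Lama4, and a fit without the trend for Itga10. Across all genes, 3839 were higher and 3840 lower, 3141 and 4666 under equal totals, and 3368 and 4407 under quantile normalization. Samples with the same replicate number showed no shared deviation: same-numbered deviations correlated at -0.13, -0.019, -0.137 and 0.0067, and 0 of 4 GOF samples correlated best with their own number. The labels do not say whether the numbers pair samples, and correlations over 4 samples per group cannot exclude it. A fit with the replicate block gave 3678 higher and 3677 lower over all genes, and 31 and 14 among members, Lamb2 and Col5a1 no longer passing.

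Precision rests on 4 samples per group; 3 reads correspond to up to 0.242 normalized reads, so Lamc3, Itgal, Itga11, Itgb2 and Col4a4, with WT means near 1 or less, are the least certain. The deposited values carry an unstated normalization, and strand use is not given, which matters for members whose exons overlap other genes. A member that did not pass is not shown to be unchanged.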
